A study of Mus musculus with 10 samples.

Results

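Capillary blood endothelial cells (BECs) of the mouse ear skin are described here: 547 cells of 1490 BECs, among 3248 wells that passed quality limits of 3456 wells sequenced. A well was kept with at least 50000 reads outside the ERCC spike-ins, at least 200 genes and at most 10% mitochondrial reads. A cell counted as a BEC when *Flt1*, *Emcn* and *Podxl* summed to at least 300 CPM (reads of the gene scaled to a fixed total of reads per cell) and exceeded the sum of the lymphatic genes *Prox1*, *Flt4* and *Mmrn1*. Of these, cells with *Apln* below 50 CPM, *Gja5* below 50 CPM, *Ackr1* and *Selp* together below 100 CPM, and *Mki67*, *Top2a*, *Ccnb1*, *Ccnb2*, *Cdk1*, *Cdc20* and *Prc1* together below 500 CPM were taken as capillary. The members were thus chosen by low levels of a few genes of tip-like (*Apln*), arterial (*Gja5*), venous (*Ackr1*, *Selp*) and dividing cells. Other genes of these states were not limited. The capillary markers *Cd36*, *Aplnr*, *Cd300lg*, *Fabp4* and *Rgcc* were not used to choose them.

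Capillaries are the exchange segment of the blood circulation, between arterioles and venules, and their endothelium takes up fatty acids, controls the passage of solutes and, when stimulated, supplies new sprouts. Phosphoinositide 3-kinase (PI3K), whose catalytic subunit is encoded by *Pik3ca*, acts downstream of VEGF and angiopoietin receptors and activates AKT and mTOR, which drive glycolysis, protein and lipid synthesis and the exclusion of FOXO factors from the nucleus. Activating *PIK3CA* mutations cause venous and lymphatic malformations, and arteries are usually spared.

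The study asked how dermal endothelium responds to oncogenic PI3K. The 5 mutant mice were Pik3caH1047R;Cdh5-CreERT2, Cre+: an inducible Cre driven by the pan-endothelial *Cdh5* promoter switched on a chicken *PIK3CA* transgene with the activating mutation at the *Rosa26* locus, after 4-hydroxytamoxifen (4-OHT) was applied to the ears at 3 wk. Control 1 was a C57BL/6J mouse without treatment. Control 2 was Cre-, of the same cross as the mutants, and received 4-OHT. All were 5 wk old. Cells were sorted on CD31 and Podoplanin, without CD45+, CD11b+ or Ter119+ cells, into 384-well plates and sequenced by Smart-Seq2, which covers full-length transcripts. The labels call the cells sorted lymphatic endothelial cells (LECs), but the plates also held BECs. A further Cre- control was not analysed here, and neither was the transgene's transcript. By their sex-linked reads, control 1 and mutants 3 to 5 were female, and control 2 and mutants 1 and 2 male. Since the 2 controls differ in strain history, treatment and sex, an effect of 4-OHT cannot be told apart from the other differences between them. Recombination was not measured in single cells here.

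Plate numbers fell into 2 series, with mutants 1 to 4 in the first series and mutant 5 with both controls in the second. Genotype and series can therefore be compared only through mutant 5, and the value of mutant 5 is given separately for the genes described in most detail. Summed over members, there were 23862965 to 29001365 reads per control mouse and 8099021 to 24463730 per mutant mouse. The median member had 228178 to 275510 reads in controls and 156776 to 266033 in mutants, with 4584 to 6391.5 and 3893 to 5470 genes detected. Mitochondrial reads were 1.24% to 1.71% in controls and 0.979% to 1.26% in mutants. Endogenous reads per spike-in read were fewer in controls, at 91.9 to 118, than in mutants, at 140 to 264. No 2 wells of different plates held identical counts.

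The count tables carry 1 hint of the genotype. CreERT2 joins Cre to a mutated human oestrogen receptor domain, and reads assigned to *Esr1*, the mouse oestrogen receptor gene, stood in the capillary BECs of controls at 0.28 and 0.13 CPM. In mutants 1 to 5 they stood at 19.6, 16.7, 27.6, 13.2 and 24.6 CPM, above both controls in every mutant. Members with an *Esr1* read made up 3.12% to 7.69% in controls and 55.7% to 68.5% in mutants. Whether these reads come from the Cre transgene was not tested. *Gt(ROSA)26Sor*, the noncoding transcript of the locus that carries the transgene, stood at 61.6 and 65.3 CPM in controls and at 17.5 to 31.8 CPM in mutants, on the same scale. *Esr1* and *Gt(ROSA)26Sor* were chosen after their values were seen.

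Capillary BECs made up a smaller share of BECs in mutants. They were 104 of 159 BECs in control 1, or 65.4% (95% Wilson interval 57.7% to 72.4%), and 96 of 157 in control 2, or 61.1% (53.3% to 68.4%). In mutants 1 to 5 they were 48 of 183 (26.2%), 55 of 184 (29.9%), 89 of 330 (27.0%), 70 of 174 (40.2%) and 85 of 303 (28.1%). Every mutant lay below both controls, with mutant 4 the highest mutant. The mean was 63.3% in controls and 30.3% ± 5.73 (SD, n = 5) in mutants, a difference of -33.0 percentage points. Intervals cover counting error only.

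The difference is a description, because the genes of the limits themselves differed between the genotypes and the sort decided how many BECs entered the plates. *Apln*, which encodes the apelin ligand of sprouting endothelium, was at or over its limit in 13.3% of control BECs on average and in 49.6% of mutant BECs. *Ackr1* and *Selp*, the venous chemokine receptor and P-selectin, were over theirs in 14.9% and 47.3%. *Gja5*, the arterial connexin, was over its limit in 11.7% of control and 6.32% of mutant BECs, and the cell cycle sum in 2.22% and 5.29%. The BECs left over differed in make-up as well. Among 827 mutant BECs outside the capillary class, 51.9% passed more than 1 limit, against 13.8% of 116 in controls, and 7.13% against 27.6% were arterial alone.

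The gap in percentage points changed little when the limits were moved, being -30.0 with the stricter limits. The limits moved are on genes that themselves differed between the genotypes, so this is no independent support for the gap. Stricter limits (*Apln* and *Gja5* below 10, venous sum below 20, cycle sum below 100 CPM) kept 245 members and gave 40.5% and 10.6%. Limits set at 100, 100, 200 and 1000 CPM gave 66.4% and 33.4%. Thinning each cell to 50000 reads before the limits were applied gave 62.5% and 28.9%.

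**Figure D1:**
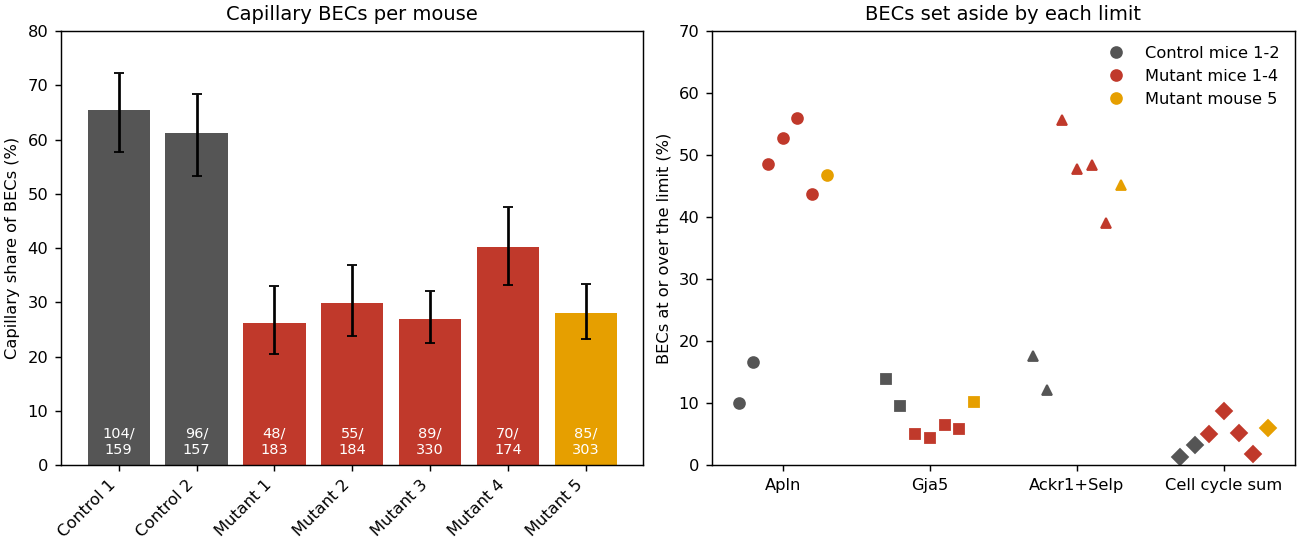
Left: capillary share of BECs (%) in each of the 2 control and 5 mutant mice, with 95% Wilson intervals and the cell counts in the bars; all 5 mutants, at 26.2% to 40.2%, lie below the controls. Right: share of BECs (%) in each mouse at or over each of the limits that set cells aside; *Apln* and the venous genes are over their limits in more BECs of every mutant than of either control.

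Gene by gene, the median member lay well inside the limits, but limits set at a lower level removed many members: the stricter limits above kept 245 of 547, with 54 and 74 left in controls and 4, 28, 28, 33 and 24 in mutants 1 to 5. The median member had 2164 CPM of *Flt1*, *Emcn* and *Podxl* together, 6.97 CPM of *Apln*, 0 CPM of *Gja5*, 10.1 CPM of *Ackr1* and *Selp* together and 3.28 CPM of the cell cycle sum. *Gja5* was at 0 in 73.9% of members, *Apln* in 29.8% and the venous genes in 18.1%. The members and non-members nearest a limit held 49.9 and 51.6 CPM of *Apln*, 42.6 and 55.5 CPM of *Gja5*, 98.7 and 102 CPM of the venous sum, 440 and 530 CPM of the cycle sum, and 301.8 and 279 CPM of the BEC sum.

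Of the 5 markers that the limits did not use, 4 were higher in capillary than in other BECs of every mouse. CPM of the reads summed over the cells of a class are used for all comparisons between classes. *Cd36*, the fatty acid receptor of capillary endothelium, stood at 2715 and 3126 CPM in capillary BECs of controls and at 2044, 3323, 2972, 3534 and 2248 CPM in mutants 1 to 5. In the other BECs of the same mice it stood at 460 to 1421 CPM, so the classes did not overlap. *Rgcc*, a regulator of the cell cycle used as a capillary marker, reached 392.5 to 695 CPM in capillary BECs and 55.5 to 304 CPM in other BECs. *Cd300lg*, a receptor on capillary and venular endothelium, reached 1238 to 1808 and 415 to 886 CPM, again without overlap. *Aplnr*, the apelin receptor, stood at 698 to 1555 and 283 to 823 CPM and was higher in capillary BECs within each mouse. *Fabp4*, a fatty acid carrier, did not separate the classes, with 1460 to 2385 and 1433 to 2023 CPM.

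Within each mouse, the 5 markers summed were higher in capillary than in other BECs by a log2 ratio of 0.85 and 0.69 in controls and 0.95, 1.41, 1.19, 1.36 and 0.87 in mutants. The median was 0.95 with an SD of 0.28 (n = 7). After each cell was thinned to 50000 reads, 525 of 547 members had a read of at least 3 of the 5 markers, at 90.9% to 100% per mouse. The same held for 852 of 943 other BECs and 587 of 1641 LECs. The number of markers detected thus did not set capillary BECs apart from the pooled other BECs, whereas levels of 4 of the 5 markers did. Against venous or arterial BECs alone, 4 of the 5 were higher in all 7 mice. Against cells with *Apln* alone over the limit, only 3 were: *Cd36*, *Rgcc* and *Fabp4*. There *Cd300lg* was lower in control 1, with a log2 ratio of -0.20. *Aplnr* was lower in control 2, at -0.07, and its median over mice was 0.34. Plates hold 1 sorted cell per well, and no doublet caller was run.

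Genes outside the limits described capillary BECs against all other BECs of the same mouse. Of 5217 genes with at least 50 CPM in either class, 350 (6.71%) were higher in capillary BECs in all 7 mice and 442 (8.47%) lower. Of the 15 genes of the capillary identity list 12 were higher in all 7 mice. The exceptions were *Fabp4*, *Meox2* and *Cyp4b1*. Of the 14 measured venous genes outside the limits 10 were lower, and so were 5 of 10 inflammatory genes. These counts describe cells that were set apart by related genes and carry no test.

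The genes with the highest ratios were led by *Slc26a10*, a member of the SLC26 anion transporter family. It reached 140 to 361 CPM in capillary BECs and 0.82 to 18.5 CPM in other BECs, a median log2 ratio of 5.18 with a range of 4.19 to 6.27 over mice. *Aqp7*, an aquaglyceroporin that also carries glycerol, reached 279 to 961 CPM against 31.2 to 202 CPM, a median log2 ratio of 3.40. Membrane-bound carbonic anhydrase 4 (*Car4*) had a median log2 ratio of 4.06, but 0.16 in the lowest mouse. *Btnl9*, a butyrophilin-like gene, had 3.57 and the adenosine receptor *Adora2a* 3.33. The potassium channel *Kcna5* followed at 3.20 and the antiviral *Rsad2* at 3.03. *Esm1*, the endothelial proteoglycan endocan and a tip cell gene, had a median of 4.16 but only 0.78 and 1.48 in the controls. *Ccdc85a* and *Ssu2* completed the 10 highest at 3.00 and 2.95.

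At the other end, *Sele*, E-selectin of activated venules, stood at 0.56 to 22.0 CPM in capillary BECs and at 82.7 to 323 CPM in other BECs, a median log2 ratio of -4.25. The cell adhesion gene *Cadm3* had -5.68, the phosphodiesterase *Enpp6* -5.65, the WNT antagonist *Dkk2* -5.11 and the matrix proteoglycan *Vcan* -4.67. Von Willebrand factor (*Vwf*) was lower in every mouse, at 308 to 654 CPM against 874 to 2237 CPM. *Vcam1*, *Icam1*, *Lrg1* and *Bgn* were also lower in all 7 mice, with median log2 ratios of -2.01, -2.03, -2.65 and -2.84. *Plvap*, the diaphragm protein of fenestrae and caveolae, was present at 1209 to 2139 CPM in capillary BECs but at 2003 to 4560 CPM in the rest.

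Against single classes the neighbours changed. Set against venous BECs, capillary BECs had more *Slc26a10* (median log2 ratio 6.76), *Eps8l2* (6.54), *P2ry2*, a nucleotide receptor (6.38), and *Aqp7* (6.03). They had less *Cadm3* (-6.76), *Sele* (-5.24) and the ecto-nucleotidase *Nt5e* (-5.17). Of 14 venous genes 9 were lower in all 7 mice, against 7.73% of all genes. Of 17 arterial genes 11 were higher in capillary than in venous BECs in all 7 mice, against 8.3% of 5239 genes. Against arterial BECs 9 of 19 arterial genes were lower in capillary BECs, against 2.89% of 5332 genes. The lowest was *Gkn3*, an arterial gene, with a log2 ratio of -6.83. The death receptor *Tnfrsf21* (5.53) and *Slc26a10* (5.51) led the 4.76% of genes that were higher in all 7 mice. Relative to cells with *Apln* alone over the limit, capillary BECs held more of the oestrogen receptor *Gper1* (5.25) and alkaline phosphatase *Alpl* (4.69), and less of the matrix genes *Npnt* (-1.93) and *Col18a1* (-1.70). The tip cell gene *Esm1* was also higher than in those cells in all 7 mice (4.26, range 0.76 to 6.60). Of 15 angiogenic genes 2 were higher and 2 lower in all 7 mice. Of 15 capillary identity genes 7 were higher in all 7 mice, against 4.25% of all genes and 4.06% lower.

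**Figure D2:**
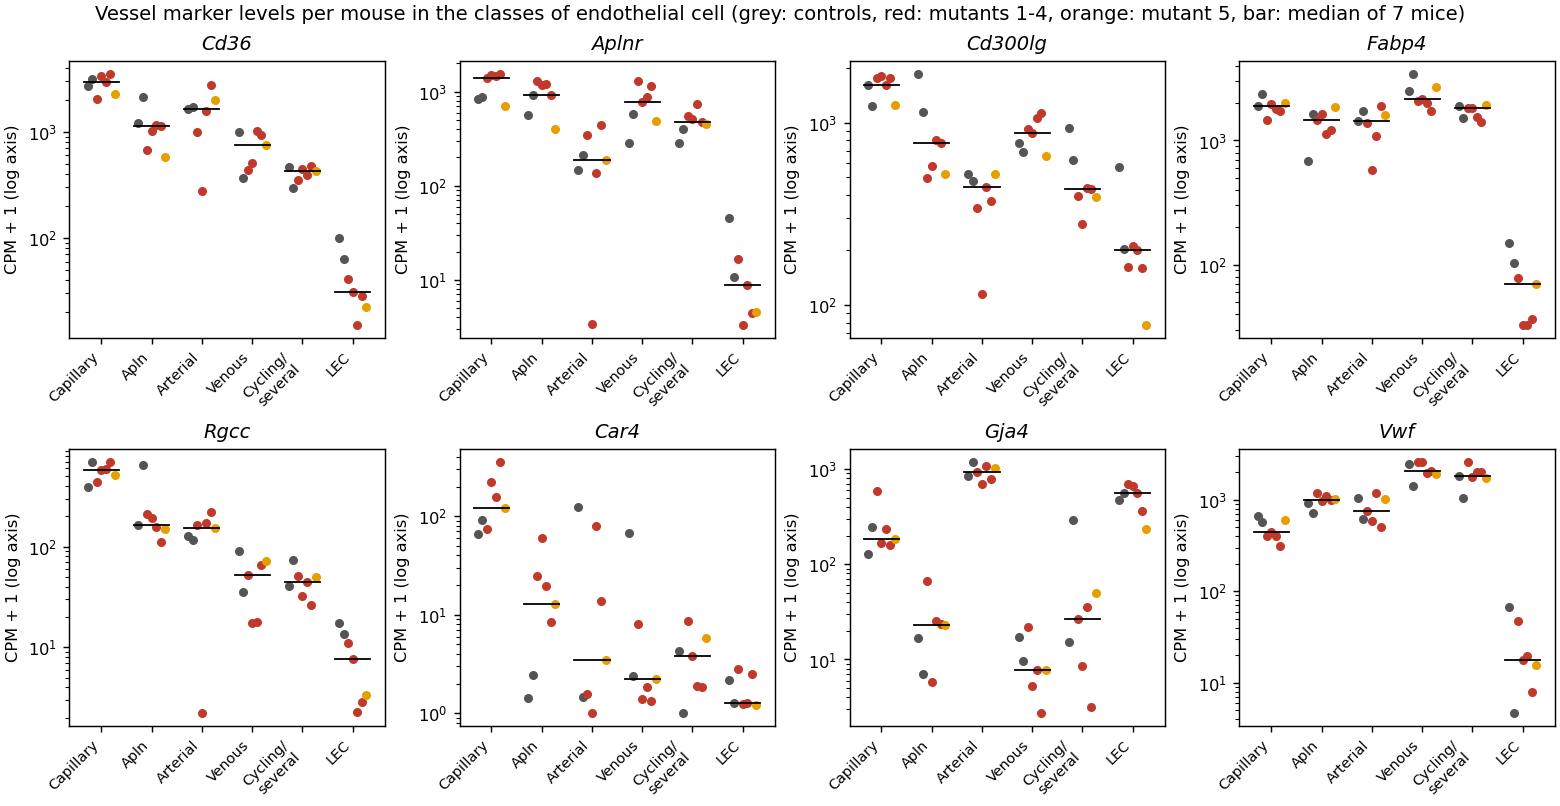
CPM + 1 (log axis) of 8 vessel genes in each endothelial class, 1 point per mouse with a bar at the median of the 7 mice. *Cd36*, *Aplnr*, *Cd300lg* and *Rgcc* have their highest median in capillary BECs and *Fabp4* its highest in venous BECs, while *Gja4* is highest in arterial and *Vwf* in venous BECs.

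The members were not uniform. *Cd36* ran from 31.4 CPM at the 10th percentile of members through a median of 3087 CPM to 6360 CPM at the 90th. *Gpihbp1*, which anchors lipoprotein lipase on the capillary wall, had a median of 1079 CPM. Lipoprotein lipase itself (*Lpl*) had a median of 6.51 CPM but 1302 CPM at the 90th percentile, and *Car4* was at 0 in 63.4% of members with 556 CPM at the 90th percentile. The members therefore held a minority with high *Lpl* or *Car4*. A minority also carried arterial or venous genes that the limits did not use. *Gja4*, another arterial connexin, had a median of 11.7 CPM and 824 CPM at the 90th percentile, and *Vwf* 48.8 and 1689 CPM.

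Members with more *Cd36* had more *Fabp4*, *Gpihbp1* and *Rgcc* and less *Vwf*. Over thinned members, the median over 7 mice of Spearman's rho was 0.71 for *Cd36* with *Fabp4* (range 0.61 to 0.81), 0.58 with *Gpihbp1* and 0.57 with *Rgcc*. For *Cd36* with *Vwf* it was -0.36 and below 0 in all 7 mice. Members of a mouse share plates and depth, so these values are given without a test.

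Reads of other cell types were present in the members and differed between the groups. Fibroblast markers (6 genes) summed to 467 to 524 CPM in controls and 22.8 to 192 CPM in mutants, with no overlap. Mural markers (6 genes) reached 426 to 1190 and 73.1 to 503 CPM. Keratinocyte markers reached 393 to 611 CPM in controls and 24.4 to 2361 CPM in mutants, where mutant 4 was highest. LEC markers reached 317 to 611 and 179 to 953 CPM, neural crest markers 4.90 to 146 and 5.79 to 15.2 CPM, and erythroid markers 8.52 to 76.7 and 6.05 to 24.6 CPM. Immune markers summed to at most 18.7 CPM in any mouse, with *Cd3e* at 0. In all, 260 members held at least 500 CPM of the markers of at least 1 such type. They were 119 of 200 control members and 141 of 347 mutant members. Without them, 24 of 104 members were left in control 1 and 57 of 96 in control 2. In mutants 1 to 5, 21, 39, 64, 45 and 37 were left.

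Mutant and control capillary BECs were then compared on reads summed per mouse, with edgeR's quasi-likelihood F test over 16656 genes and Benjamini-Hochberg adjustment. Calls were made below an adjusted p of 0.05. Levels in this comparison are CPM after TMM scaling, which adjusts library sizes for composition, and log2 fold changes are mutant over control with their standard error (SE). The test called 0 genes higher (0%) and 1 gene lower (0.006%). At an unadjusted p under 0.05, 667 genes (4%) were higher and 620 (3.72%) lower. DESeq2, run on the same sums, called 169 higher (1.01%) and 55 lower (0.33%). The mice of a group are separate animals by the labels, but with 2 controls the spread of the control group rests on a single pair.

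The gene called was *Chad* (ENSMUSG00000039084), which encodes the cartilage matrix protein chondroadherin. It stood at 82.8 and 62.6 CPM in controls and at 0.13, 0.19, 0.05, 0 and 0.20 CPM in mutants 1 to 5. Controls and mutants were far apart, and mutant 5, from the series of the controls, was as low as the others. The log2 fold change was -9.31 (SE 0.90, adjusted p = 0.0327 by edgeR). The test made 0 calls when any mouse but mutant 4 was left out, or when plate series was a block. *Chad* reads were found in 28.1% to 46.2% of control members and in 0% to 4.71% of mutant members.

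*Chad* was also read in other classes. In the controls its plain CPM was 88.3 and 11.3 in other BECs and 51.6 and 11.3 in LECs. Further cartilage and tendon genes, chosen after their values were seen, followed it. *Angptl7* stood at 39.0 and 101 CPM in control members and at 0.09 to 1.02 CPM in mutant members, *Cilp2* at 52.6 and 28.5 CPM against 0 to 0.16 CPM, and *Wif1* at 24.1 and 24.7 CPM against 0 to 0.12 CPM. *Cnmd* and *Col2a1* were at 7.28 and 17.7 CPM and at 1.41 and 8.30 CPM in controls, and at most 0.09 CPM in mutants. *Acan*, the main proteoglycan of cartilage, was at 0.41 and 0.34 CPM in controls and at 0 in every mutant. Without the 260 members that held markers of another cell type, the log2 fold change of *Chad* was -6.95. These cartilage genes and the fibroblast markers were both higher in controls, and their part in the other differences was not tested.

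Since the adjusted p-values of all other genes missed the threshold, gene groups are described by the values per mouse. The count used is the number of genes whose mutant mice all lay outside the range of the controls. Over all genes, 960 (5.76%) lay above and 1257 (7.55%) below. Among the 4683 genes with a mean of at least 50 CPM the shares were 10.9% above and 5.47% below. The counts of every list below are to be read against these shares. The median log2 fold change of all genes was 0.04, and -0.17 when mutant 5 alone was set against the controls.

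Capillary identity genes overlapped between the groups in nearly all cases. *Cd36* stood at 2616 and 3010.0 CPM in controls and at 2192, 3414, 2999, 3589 and 2167 CPM in mutants, a log2 fold change of 0.03 (SE 0.22). *Fabp4* differed by -0.19 (SE 0.16), *Rgcc* by 0.13 (SE 0.26) and *Cd300lg* by 0.28 (SE 0.21), with overlapping mice. Of the 15 genes of the list, 1 lay above the controls in every mutant and 0 below, and the median log2 fold change was 0.13.

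That gene was *Sgk1*, a kinase activated downstream of PI3K. It stood at 411 and 375 CPM in controls and at 607, 889, 576, 943 and 1116 CPM in mutants, so the highest value was that of mutant 5. The log2 fold change was 1.07 (SE 0.29, adjusted p = 0.43 by edgeR, 0.037 by DESeq2). *Aplnr* behaved differently. It stood at 815 and 840.0 CPM in controls, at 1506, 1534, 1491 and 1579 CPM in mutants 1 to 4, and at 673 CPM in mutant 5. The mutants of the first plate series were thus all above the controls and the mutant of the second below them. *Kdr*, the main VEGF receptor, and *Btnl9* followed the same order, with *Kdr* at 778 to 1088 CPM in mutants 1 to 4, 453 CPM in mutant 5 and 583 and 758 CPM in controls. *Car4* stood at 62.5 and 87.8 CPM in controls and 78.7 to 362 CPM in mutants.

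Of 16 fatty acid handling genes 0 lay above and 1, the fatty acid transport protein gene *Slc27a4*, below the controls in every mutant, and the median log2 fold change was -0.03. *Gpihbp1* stood at 1132 and 1419 CPM in controls, at 699 to 960 CPM in mutants 1 to 4 and at 1447 CPM in mutant 5. *Lpl* was as variable among controls, at 423 and 66.4 CPM, as among mutants. *Pparg*, the lipid-sensing nuclear receptor, and *Meox2*, a transcription factor of fatty acid uptake, differed by -0.06 (SE 0.39) and -0.07 (SE 0.27).

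Glycolytic genes were the group with the largest number of members above the controls: 8 of 19, and 0 below, against 5.76% of all genes and 10.9% of genes of at least 50 CPM. The median log2 fold change was 0.55, and 0.74 with mutant 5 alone. Aldolase A (*Aldoa*) stood at 632 and 565 CPM in controls and at 1059, 873, 967, 904 and 1132 CPM in mutants, with a log2 fold change of 0.72 (SE of 0.18, adjusted p = 0.38 by edgeR, 0.024 by DESeq2). Pyruvate kinase (*Pkm*) stood at 387 and 478 CPM and at 653, 768, 615, 650 and 919 CPM. Lactate dehydrogenase A (*Ldha*) stood at 484 and 685 CPM and at 789, 826, 838, 861 and 959 CPM. In all of these, each mutant lay above both controls and mutant 5 was the highest.

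*Eno1*, *Pgk1*, *Pgam1*, *Gpi1* and *Pfkm* completed the 8, with log2 fold changes of 0.57, 0.80, 0.53, 0.45 and 0.89. *Pfkl*, the liver-type phosphofructokinase, had a larger fold change of 1.32 (SE 0.46), but mutant 1, at 96.1 CPM, lay between the controls. The glucose transporter *Slc2a1* stood at 152 and 89.3 CPM in controls and at 50.6 to 244 CPM in mutants, with a log2 fold change of 0.02 (SE 0.57), and the regulator *Pfkfb3* at -0.87 (SE 0.61). *Hk2* did not pass the expression filter. Across classes, 5 of 15 glycolytic genes were lower in capillary BECs than in the other BECs in all 7 mice, among them *Pkm* and *Aldoa*. Of all genes 8.47% were.

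**Figure D3:**
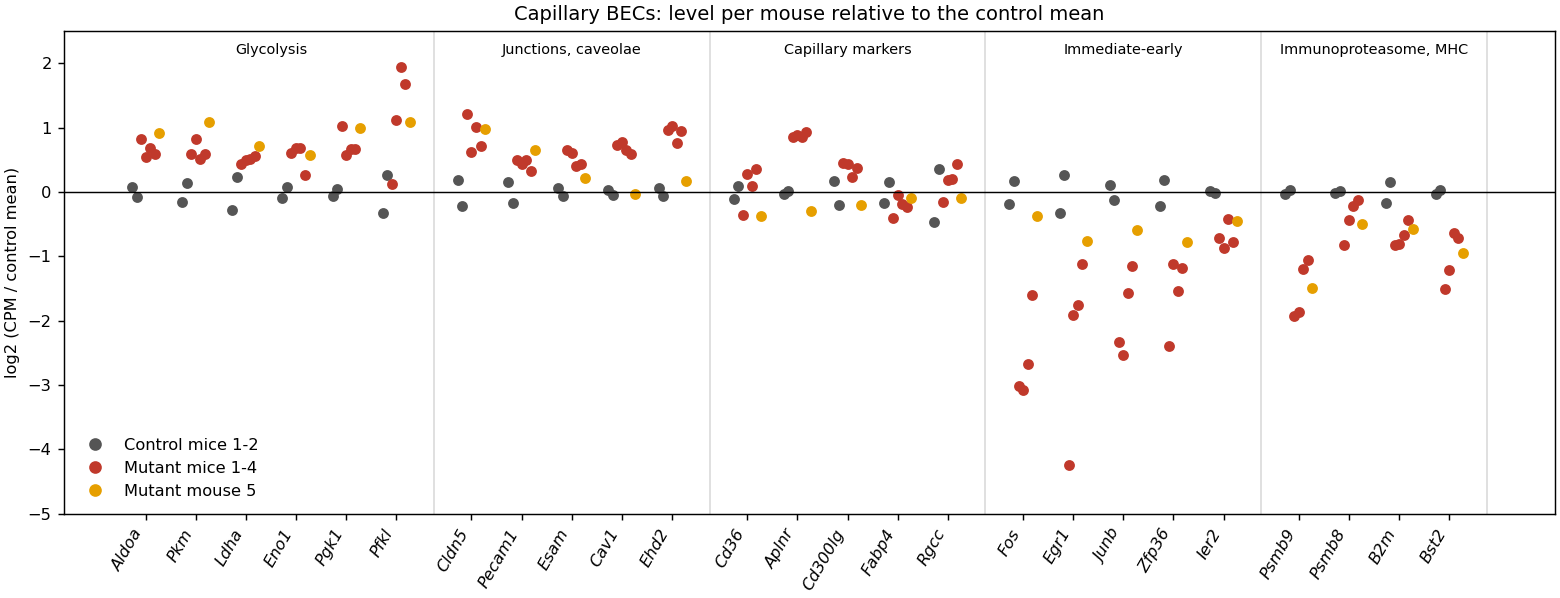
Level in capillary BECs of each mouse as log2 of CPM after TMM over the mean of the controls, for 25 genes in 5 groups; grey points are controls, red mutants 1 to 4 and orange mutant 5. The 5 mutants lie above both controls for *Aldoa*, *Pkm* and *Cldn5*, mutant 5 lies apart from the other mutants for *Aplnr* and *Cav1*, and all mutants lie below the controls for *Fos* and *Psmb9*.

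Genes of the PI3K cascade itself showed no common direction. Of 26 components 2 lay above and 2 below, against 5.76% and 7.55% of all genes, with a median log2 fold change of -0.02. DESeq2 called 0 of the 26. The endogenous catalytic subunit *Pik3ca* stood at 49.6 and 63.2 CPM in controls and at 21.6, 11.6, 35.7, 12.2 and 21.2 CPM in mutants, below the controls in every mutant (log2 fold change -1.46, SE 0.52, adjusted p = 0.60 by edgeR). The authors aligned reads to the mouse genome together with the chicken sequence, which is close to mouse *Pik3ca*, and how reads that match both were assigned was not tested. *Pik3cd* was also below both controls, at 48.1 and 9.28 CPM against 0.05 to 8.43 CPM. The regulatory subunit *Pik3r3* stood at 67.1 and 76.5 CPM and at 82.6 to 161 CPM with mutant 5 highest, and *Pik3r2* at 31.4 and 19.9 CPM and at 32.1 to 41.4 CPM. The kinase gene *Mtor* differed by 0.05 (SE 0.43).

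Of 21 FOXO-responsive genes 0 lay above and 1 below the controls in every mutant. The member below was *Bcl6*, at 19.998 and 16.7 CPM in controls and 0.13 to 10.6 CPM in mutants. *Irs2* was near 0 in most mice. *Klf2*, a flow-responsive transcription factor, stood at 310 and 179 CPM and at 202 to 345 CPM. Sterol and fatty acid synthesis genes, targets of SREBP, had 0 of 24 genes outside the controls in every mutant and a median log2 fold change of 0.11. In the ATF4 list 2 of 20 lay above, against 5.76% of all genes and 10.9% of genes of at least 50 CPM. *Shmt2*, the mitochondrial enzyme that splits serine, stood at 36.9 and 28.1 CPM in controls and at 101, 70.2, 79.5, 80.4 and 67.9 CPM in mutants (log2 fold change 1.29, SE 0.33, adjusted p = 0.43 by edgeR, 0.0080 by DESeq2). *Slc7a1*, a cationic amino acid transporter, stood at 19.2 and 7.87 CPM and at 29.9 to 62.8 CPM.

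Junction and caveola genes lay above the controls in every mutant in 4 of 20 cases and below in 0. Among genes of at least 50 CPM the shares were 10.9% and 5.47%. *Cldn5*, the tight junction claudin of endothelium, stood at 1136 and 858 CPM in controls and at 2311, 1539, 2015, 1638 and 1975 CPM in mutants, above the controls in all 5. The log2 fold change was 0.93 (SE 0.21, adjusted p = 0.36 by edgeR, 0.017 by DESeq2), and 0.55 without the members that held markers of another cell type. *Pecam1*, encoding CD31, on which the cells were sorted, stood at 2277 and 1818 CPM and at 2880, 2768, 2895, 2566 and 3212 CPM. *Esam* and the caveolar ATPase *Ehd2* were the others, with log2 fold changes of 0.47 (SE 0.16) and 0.81 (SE 0.24).

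Caveolin 1 (*Cav1*) split by plate series. It stood at 2954 and 2799.5 CPM in controls, at 4791, 4932, 4545 and 4350 CPM in mutants 1 to 4 and at 2821 CPM in mutant 5. The caveola gene *Ehd2*, at 1746 to 2089 CPM in mutants 1 to 4, stood at 1152 CPM in mutant 5, nearer to the 1068 CPM of control 1. The median of the barrier list was 0.30, and -0.05 with mutant 5 alone. Of 5 pan-endothelial markers 2, *Cldn5* and *Pecam1*, lay above the controls in every mutant. The markers summed to 4539 to 5171 plain CPM in controls and 6267 to 7071 plain CPM in mutants, without overlap, and the part of this in the junction genes was not tested.

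Angiogenic genes had 4 of 20 members above and 0 below, against 10.9% and 5.47% of genes of at least 50 CPM. Of the 4, 1 was *Apln*, which the limits used. The others were *Trp53i11*, the polyamine enzyme *Odc1* and the integrin *Itga5*. *Trp53i11* stood at 448 and 482 CPM in controls and at 1195, 984, 839, 737 and 968 CPM in mutants (log2 fold change 1.02, SE 0.22, adjusted p = 0.35 by edgeR, 0.0069 by DESeq2). The tip cell gene *Esm1* went the other way, at 74.4 and 233 CPM in controls and 19.9 to 98.9 CPM in mutants, with overlap. *Dll4*, a Notch ligand, differed by 0.00 (SE 0.25) and *Angpt2*, an angiopoietin, by 0.56 (SE 0.44). The median of the list was 0.43, and 1.02 with mutant 5 alone.

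Of 15 VEGF and TIE genes 0 lay outside the controls in every mutant, with a median of 0.40. *Tie1* was at 1125 to 1480 CPM in mutants 1 to 4 and at 803 CPM in mutant 5, between the controls at 913 and 673 CPM. Of 22 Notch and BMP genes 1 lay below. It was *Id1*, a target of BMP signalling, at 589 and 719 CPM in controls and 325 to 556 CPM in mutants, with mutant 5 at 433 CPM (log2 fold change -0.66, SE 0.23). *Gja1*, a connexin outside the lists, was chosen after its values were seen. It stood at 389 and 445 CPM in controls and at 239, 228, 219.7, 203 and 234 CPM in mutants. The log2 fold change was -0.89 (SE 0.18, adjusted p = 0.35 by edgeR, 0.0023 by DESeq2).

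Of 20 arterial genes 1 lay above and 1 below. *Fbln5*, an elastic fibre protein, stood at 145 and 157 CPM in controls and at 801, 422, 371, 290 and 645 CPM in mutants (log2 fold change 1.75, SE 0.40, adjusted p = 0.38 by edgeR, 0.0029 by DESeq2). Matrix Gla protein (*Mgp*) was below, at 94.7 and 106 CPM against 16.2 to 82.3 CPM. *Gja4* stood at 627 CPM in mutant 1 and at 159 to 234 CPM in the other mutants, against 123 and 239 CPM in controls.

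Of 18 venous genes 2 lay above, against 5.76% of all genes and 10.9% of genes of at least 50 CPM. They were *Selp*, used by the limits, and *Chst1*, a sulfotransferase. *Chst1* stood at 1.73 and 0.20 CPM in controls and at 2.78, 20.8, 14.4, 25.8 and 33.8 CPM in mutants. *Nr2f2*, the venous transcription factor COUP-TFII, overlapped, at 30.8 and 9.12 CPM and 12.8 to 55.1 CPM. The venous list's median was 0.52. The 7 venous markers had a median of 0.60, and 2.49 without the 260 members that held other cell type markers.

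Inflammatory genes had 3 of 16 tested members above, all chemokines, against 5.76% of all genes and 10.9% of genes of at least 50 CPM. *Cxcl9*, an interferon-gamma-induced ligand of CXCR3, stood at 0.13 and 0.77 CPM in controls and at 27.5, 13.9, 5.45, 26.8 and 4.37 CPM in mutants (log2 fold change 5.11, SE 1.41, adjusted p = 0.46 by edgeR, 0.00022 by DESeq2). *Ccl2*, a monocyte attractant, was at or below 0.33 CPM in controls and at 0.53, 9.78, 0.55, 7.11 and 40.1 CPM in mutants, so the high value rested on mutant 5. *Cx3cl1*, fractalkine, stood at 81.9 and 74.5 CPM and at 175, 185, 97.2, 153 and 125 CPM. The adhesion molecules *Icam1* and *Sele* overlapped between the groups.

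In the vasoactive list 3 of 16 genes lay above and 1 lay below. The shares were 5.76% and 7.55% of all genes, and 10.9% and 5.47% of genes of at least 50 CPM. The genes above were *Ednrb*, *Ddah2* and *Apln*, the last used by the limits. The endothelin receptor B gene *Ednrb* stood at 90.4 and 82.0 CPM in controls and at 395, 251, 280, 143 and 165 CPM in mutants (log2 fold change 1.52, SE 0.41, adjusted p = 0.43 by edgeR, 0.022 by DESeq2). *Ptgis*, prostacyclin synthase, was below at 28.5 and 25.8 CPM against 0.53 to 7.53 CPM, the highest being mutant 5, but without the members that held other cell type markers its log2 fold change was 0.06 in place of -2.80. *Nos3*, endothelial nitric oxide synthase, differed by 0.12 (SE 0.23). Of 16 coagulation genes 1, the thrombin receptor *F2r*, lay above, at 38.5 and 44.7 CPM against 74.7 to 118 CPM, the highest being mutant 5, and had a log2 fold change of 1.23 (SE 0.31, edgeR adjusted p = 0.40, DESeq2 0.0056). *Vwf* had a log2 fold change of -0.44 (SE 0.23). Of 18 basement membrane genes 1, *Col18a1*, lay above, and *Col4a1* and *Col4a2*, the main collagen IV chains, differed by 0.53 (SE 0.27) and 0.48 (SE 0.24).

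Immediate-early and stress genes were the group with the most members below the controls: 7 of 19, and 0 above, against 7.55% of all genes and 5.47% of genes of at least 50 CPM. *Fos* stood at 745 and 956 CPM in controls and at 105, 100.5, 134, 280 and 657 CPM in mutants. *Egr1* stood at 518 and 782 CPM and at 34.4, 173, 193, 300.3 and 385 CPM, and *Junb* at 617 and 522 CPM and at 113, 98.1, 192, 257 and 377 CPM. All mutants lay below the controls, and mutant 5 was the nearest to them in each. The log2 fold change of *Fos* was -1.73 (SE 0.65, adjusted p = 0.60 by edgeR), and -0.35 with mutant 5 alone. DESeq2 called 0 of the 19 genes. *Zfp36*, *Ier2*, *Socs3* and *Fosb* were the others of the 7. Plate series and genotype cannot be told apart for mutants 1 to 4.

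Interferon and antigen presentation genes had 6 of 22 members below and 0 above, against 5.47% and 10.9% of genes of at least 50 CPM. *Psmb9*, an immunoproteasome subunit, stood at 171 and 180 CPM in controls and at 46.3, 47.9, 76.6, 84.2 and 62.1 CPM in mutants. The groups were well apart and mutant 5 sat among the other mutants. Its log2 fold change was -1.47 (SE 0.30, adjusted p = 0.35 by edgeR, 0.0041 by DESeq2) and -1.48 with mutant 5 alone. *B2m*, the light chain of MHC class I, stood at 1468 and 1845 CPM and at 938, 942, 1038, 1222 and 1119 CPM. *Bst2*, *Psmb8*, *Stat2* and *Isg15* were the others, with log2 fold changes of -0.97, -0.40, -0.94 and -1.83. *Rsad2* went the other way, at 120 and 139 CPM and 136 to 390 CPM, with overlap. The heavy chain gene *H2-K1* differed by 0.11 (SE 0.20). The median of the list was 0.03, and -0.67 with mutant 5 alone.

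DNA replication genes had 0 of 20 members outside the controls, with a median of 0.37. G1 cyclins and their inhibitors had 2 of 14 above, *Cdk4* and *Rb1*, against 10.9% of genes of at least 50 CPM, with a median of 0.02. Both lists describe cells from which the limits had removed those with high cell cycle genes. *Cdkn1a*, the p21 inhibitor, stood at 93.1 and 90.3 CPM in controls and at 78.1 to 483 CPM in mutants, with mutant 5 highest.

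Of the markers of other cells, fibroblast genes lay below the controls in every mutant in 3 of 6 cases, *Dcn*, *Col1a1* and *Col1a2*, with a median log2 fold change of -2.65. *Dcn*, the matrix proteoglycan decorin, stood at 99.1 and 102 CPM in controls and at 0.53 to 21.0 CPM in mutants, with mutant 5 at 3.63 CPM. Mural genes lay below in 2 of 6 cases, *Kcnj8* and the pericyte gene *Rgs5*, the second at 691 and 230 CPM against 15.0 to 223 CPM. LEC, keratinocyte, immune, neural crest and erythroid markers had 0 genes outside the controls in every mutant, with medians of 0.33, 0.53, -0.21, -3.38 and -1.56. The arterial, venous, angiogenic and capillary marker lists had 0 as well, with medians of 0.31, 0.60, 0.00 and 0.13.

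**Figure D4:**
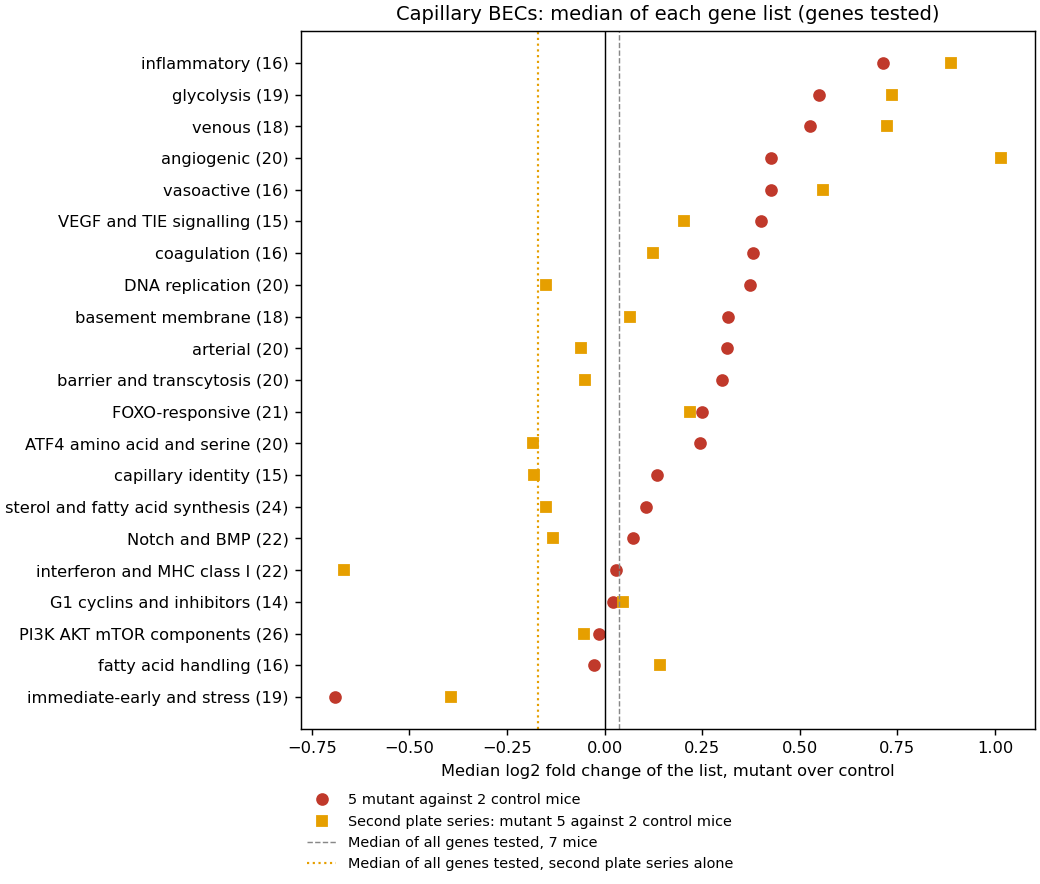
Median log2 fold change, mutant over control, of each gene list in capillary BECs, with the number of genes tested; red circles use all 7 mice, orange squares mutant 5 against the controls, and vertical lines mark the medians of all genes. Glycolysis lies at 0.55 and 0.74, immediate-early genes at -0.69 and -0.39, and interferon genes at 0.03 and -0.67.

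Of 4683 genes of at least 50 CPM, 509 (10.9%) lay above and 256 (5.47%) below the controls in every mutant. Among these, with members of the lists included and predicted genes left out, DESeq2 called 67 genes higher and 14 lower. The genes named here from that set were chosen after their values were seen. *Slc6a6*, the taurine transporter, stood at 423 and 398 CPM in controls and at 1685, 1161, 1034, 979 and 782 CPM in mutants (log2 fold change 1.46, SE 0.29, adjusted p = 0.35 by edgeR, 0.0012 by DESeq2). *Npnt*, the integrin ligand nephronectin (chr3:132881745-132950291 in GRCm38, minus strand), stood at 10.1 and 10.8 CPM and at 57.3, 75.2, 56.6, 34.9 and 116 CPM, a log2 fold change of 2.70 (SE 0.55), and 1.21 without the members that held markers of another cell type. *Dbi*, the acyl-CoA binding protein (chr1:120113280-120121078, minus strand), stood at 93.5 and 189 CPM and at 39.3 to 68.6 CPM, the highest being mutant 5, and its log2 fold change was -1.50 (SE 0.35). Each mutant, mutant 5 included, lay on 1 side of both controls in all of these, as the choice of the set required.

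Measured as plain CPM in other classes, *Slc6a6* and *Npnt* were again higher in every mutant than in either control. *Slc6a6* stood at 93.9 and 239.5 CPM in other BECs of controls and 255 to 317 CPM in those of mutants, and *Npnt* at 17.1 and 18.3 CPM in control LECs and 315 to 544 CPM in mutant LECs.

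Whether the mutant effect differed between capillary and other BECs was tested by the genotype by class term, with the mouse as a block, over 18870 genes. edgeR called 0 genes (0%) in either direction. At an unadjusted p under 0.05, 635 genes (3.37%) had a more positive and 915 (4.85%) a more negative effect in capillary BECs. DESeq2 called 255 (1.35%) and 318 (1.69%).

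The lowest adjusted p was 0.117, for *Cldn5*. In capillary BECs, scaled with all sums of this fit, it stood at 1149 and 851 CPM in controls and at 2386, 1562, 2092, 1661 and 2041 CPM in mutants. In other BECs it stood at 1018 and 1161 CPM and at 687, 384, 681, 472 and 721 CPM. Mutants were above controls in the first class and below them in the second, a difference of 1.89 (SE 0.20) on the log2 scale. *Dll4* followed, with a difference of 2.14 (SE 0.25, adjusted p = 0.152 by edgeR). In other BECs it stood at 348 and 534 CPM in controls and at 78.7 to 147 CPM in mutants.

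Arterial cells made up 27.6% of the other BECs in controls and 7.13% in mutants. *Cldn5* reached 2015 to 3111 CPM in arterial and 103 to 454 CPM in venous BECs, in plain CPM. The arterial list as a whole had a median difference of 1.47, against -0.15 for all genes, with 9 of 20 genes called by DESeq2. The capillary identity list had a median of 0.97, with 5 of 15 called by DESeq2 and 0 by edgeR, among them *Cd36* with a difference of 0.97 (SE 0.21) and *Rgcc* with 1.47 (SE 0.35). *Cd36* was level in capillary BECs and stood at 1019 and 1399 CPM in other BECs of controls and 454 to 825 CPM in those of mutants. The part of that make-up in these differences was not tested.

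Set against venous BECs, the cells over the venous limit alone, the term gave 0 calls by edgeR over 16697 genes (0%). There were 300 (1.8%) and 739 (4.43%) at an unadjusted p under 0.05, and 130 (0.779%) and 346 (2.07%) by DESeq2. In simulated counts with 200 genes changed by a log2 of 2, this term recovered 2.5% of them. The 0 calls therefore do not show that the effects were alike. Venous sums of the controls rested on 34 cells. Of these, 4 of 18 in control 1 and 5 of 16 in control 2 held less than 500 CPM of the markers of every other cell type. The capillary identity list had a median difference of -0.09, against -0.19 for all genes. The difference of *Cldn5* was 1.14 (SE 0.48) and that of *Cd36* -0.23 (SE 0.44). *Aldoa* differed by 0.22 (SE 0.20), with venous BECs at 907 and 616 CPM in controls and 819 to 1182 CPM in mutants.

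The lowest adjusted p in this term was 0.194, reached among others by fibronectin (*Fn1*), with a difference of 5.82 (SE 0.76, edgeR). Venous BECs held 178 and 235 CPM in controls and 4.75 to 20.03 CPM in mutants, and capillary BECs 66.9 and 56.8 CPM and 45.5 to 432 CPM. *Cx3cl1* differed by -3.82 (SE 0.59), with 2.63 and 1.98 CPM in venous BECs of controls and 30.9 to 89.9 CPM in those of mutants. The fibroblast list had a median difference of 6.63 in this term, with 3 of 6 genes called by DESeq2.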

How the data were processed

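Single sorted cells were sequenced by Smart-Seq2 on 9 plates of 384 wells. Per the submitters' processing notes and the study's methods, the authors aligned reads with TopHat2 2.1.1 to GRCm38, to which the chicken transgene had been added. They took out duplicates with SAMtools 0.1.18 and deposited raw read counts per gene from featureCounts (Subread). The notes also name R 3.5.1 and Seurat 3.1.1. Counts carry no molecular identifiers, so duplicates could be removed by position only. Of 46609 rows, 92 were spike-ins and left out of library sizes, and 46005 of 46517 Ensembl genes had a symbol in the annotation.

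Wells were filtered and classed by the limits given in the report, and plates of a mouse were joined. The members and gene lists were chosen with earlier results of these data known. Read counts of members were summed per mouse, filtered with filterByExpr, scaled by TMM and tested with edgeR 4.0.16 (glmQLFit, glmQLFTest) in R 4.3.3, with limma 3.58.1 loaded. Differences of effects used class sums with the mouse as a block. DESeq2 1.42.0 was the other tool. Ratios between classes added 1 CPM to each level. Sums, shares and plots used matplotlib 3.10.9, pandas 2.3.3, numpy 2.4.6 and scipy 1.17.1 under Python 3.11.15. The edgeR fits were tested on simulated counts in which 200 genes were changed by a log2 of 2. The comparison of mutant with control recovered 30% of them. The difference of effects against other BECs recovered 28%, and that against venous BECs 2.5%. Genes named were those of the limits, list members (those outside the controls in every mutant and those that define a list's role), called genes, and the 10 highest and 10 lowest class ratios with 1 sign in all 7 mice. Others are marked as chosen after their values were seen. A listed gene is not reported here by name. Alternatives covered scaling, filters, limits, depth, plates, sex and left-out mice.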

Additional observations from a re-analysis of the deposited data

Results flagged for a closer look

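In 14 of 95 sets of 5 mutant values, 1 mouse stood apart from the other 4, its gap to the nearest being more than 0.71 of the range. For unselected, normally distributed values chance marks about 1 set in 20. These genes were named with values of these data known and some lie near 0, so that rate is not a baseline for the count. Levels are CPM after TMM in capillary BECs.

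Mutant 5, the mutant sequenced in the plate series of the controls, stood apart for 5 genes. It held 673 CPM of *Aplnr* (other mutants 1491 to 1579) and 2821 CPM of *Cav1* (4350 to 4932). It held more *Mgp*, at 82.3 CPM (16.2 to 32.9), *Pik3cd*, at 8.43 CPM (0.05 to 2.12), and *Ccl2*, at 40.1 CPM (0.53 to 9.78).

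Mutant 4 had the highest capillary share, 40.2% of BECs (26.2% to 29.9%). It also held 151 CPM of *Hmgcs1* (48.5 to 71.6), 76.9 CPM of *Fasn* (5.16 to 17.5), 10.6 CPM of *Bcl6* (0.13 to 2.40) and 3.90 CPM of *Irs2* (0 to 0.77). Mutant 1 held 627 CPM of *Gja4* (159 to 234), 151 CPM of *Akt1* (98.6 to 113) and 41.4 CPM of *Pik3r2* (32.1 to 34.0). Mutant 2 held 62.8 CPM of *Slc7a1* (29.9 to 35.4).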

How the results depend on the processing

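The edgeR comparison of mutant with control capillary BECs called 1 gene. It called 224 with DESeq2, 3 without the expression filter, 2 with first plates alone and 2 with looser limits. It called 0 with plate series as a block, sex as a covariate, the second plate series alone, equal cell numbers, sums of thinned cells, stricter limits or without members that held other cell type markers. Leaving out 1 mouse gave 0 to 1 calls, the 1 being without mutant 4. Chosen after seeing the data, genes of at least 50 CPM gave 0 and the bias-adjusted quasi-likelihood 2. The replicate block gave 0 calls. The labels share numbers 1 and 2 between the groups, but deviations of same-numbered mice correlated at 0.0054 and 0.025 over 16656 genes, so the numbers were not taken as a pairing. The difference of effects against other BECs gave 573 calls with DESeq2 and 1 without the filter, and that against venous BECs 476 with DESeq2, in place of 0. With 1 mouse left out, the capillary share of BECs differed by -35.5 to -30.9 points, and the marker log2 ratio of capillary against other BECs within mice lay between 0.91 and 1.07. For 94 named genes, 2132 values held 0 called reversals, 18 gained a call, 15 lost one, and 61 genes kept their sign in every alternative. Cause was not tested. With 2 controls, a p that misses the threshold does not show that a gene did not differ.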
